A study of Mus musculus with 8 samples.

Results

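Lungs of C3H/HeOuJ mice were compared with lungs of C3H/HeJ mice, with both exposures, filtered air and ozone, averaged, so that the leading value is the mean of the substrain difference in air and that in ozone. All 8 arrays of the series entered this comparison, 4 with HeOuJ and 4 with HeJ in the title. Each of the 4 groups held 2 arrays: HeJ air and HeJ ozone of strain C3H-HeJ, and HeOuJ air and HeOuJ ozone of strain C3H-HeOuJ. Each array carried total RNA from murine lung that had been frozen in liquid nitrogen. A time of 72 h is stated for the HeOuJ groups alone. Sex, age and ozone concentration are not in the labels, and whether both arrays of a group were from different mice is not said. Each array reported 12488 probe sets, short oligonucleotide sets that each read 1 or more transcripts, and 12422 of them were not array controls.

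The 2 substrains come from the same C3H stock. C3H/HeJ mice carry a spontaneous mutation of the endotoxin receptor gene Tlr4 and respond weakly to bacterial endotoxin, whereas C3H/HeOuJ mice respond normally. Tlr4 signals through the adaptor Myd88 and the transcription factor NF-kB to cytokines such as Tnf and Il6, and the pair of substrains is widely used to ask which lung responses depend on it. Tlr4 itself was not analysed here.

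Values are deposited intensities on a linear scale, and a fold change is HeOuJ over HeJ on the log2 scale, so a positive value means higher in HeOuJ. Values under a floor of 69.6 were raised to it before log2 was taken, and 10953 probe sets that exceeded the floor on at least 2 arrays were tested in limma. A probe set passed where its p, adjusted by Benjamini-Hochberg over those 10953, was under 0.05. Arrays were similar in level, with medians of 351 to 386. Actin has control probe sets at both ends of its transcript, and their ratio (5' over 3'), a measure of how complete the labelled RNA was, lay at 0.432 to 0.53 on the 4 HeJ arrays and at 0.598 to 0.766 on the 4 HeOuJ arrays, without overlap. The same ratio for a further control transcript, Gapdh, did overlap, at 0.775 to 0.897 on HeJ arrays and 0.853 to 1.34 on HeOuJ arrays. Adding the actin ratio to the model left 3 residual degrees of freedom and raised the median SE from 0.21 to 0.96. Since the actin ratio did not overlap between the substrains, that model can hardly separate it from the substrain. Its values and its counts of positive genes are given as description alone. The first principal component held 30.7% of the variance and set the HeOuJ ozone arrays (53.2 and 19.3) apart from the other 6 (-21 to 0.537). On the second, which held 16.3%, those arrays lay at opposite ends, HeOuJ ozone 1a at -22.8 and 1b at 37.2. Their Spearman correlation was 0.931, against 0.952 to 0.961 within each other group. Array 1b correlated more closely with every array of the other groups (0.933 to 0.945), and 1a less closely (0.911 to 0.921). The contrast in ozone therefore rests on HeOuJ arrays that differed from each other. The causes of the gap in the ratio were not tested. Whole lung was profiled, so fewer cells of a type and less RNA per cell cannot be told apart.

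Substrain differences that passed were few. In the mean over exposures 17 probe sets passed, 0.155% of those tested, of which 11 were higher in HeOuJ (0.1%) and 6 were lower (0.0548%). They stood for 12 named genes and 4 probe sets with no gene in the annotation. The named genes higher in HeOuJ were Fabp1, Hspa1b, Nme2, Igha, Lcn2, Cd68 and Sbds, and those lower were Skap2, Cystm1, Ppp1r21 and Eif2s3y. Ighm, the heavy chain of IgM, passed in both directions with different probe sets. For 15 of the 17 the 4 HeOuJ arrays lay apart from the 4 HeJ arrays, which was so for 4.7% of all probe sets (2.7% all above and 2% all below). The lowest adjusted p among those that did not pass was 0.0536, for a probe set shared by Dynlt1a and Dynlt1c, and the highest among those that passed was 0.0407, for Sbds. In simulated data of 10953 probe sets with 100 changes of each size, this comparison recovered 49% of 2-fold and 79% of 4-fold changes. That single run drew independent noise with no exposure effect, and 132 probe sets passed in it. Its rates may therefore be higher than those of the arrays themselves.

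**Figure D1:**
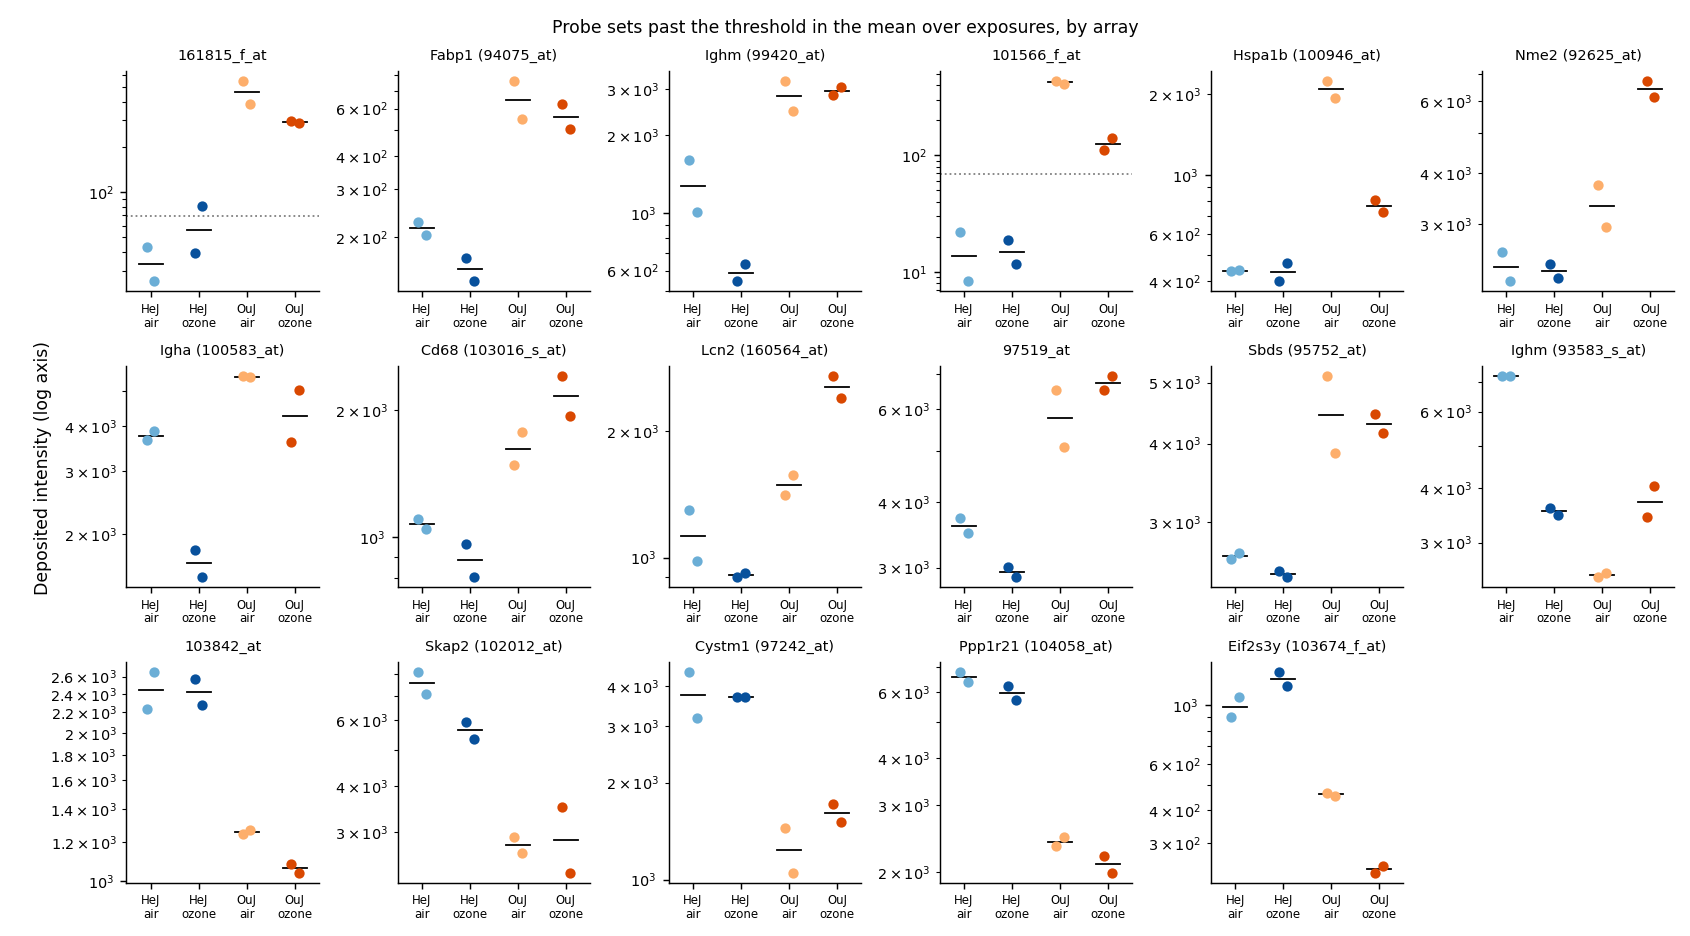
Deposited intensity (vertical log axis) of each of the 17 probe sets that passed in the mean over exposures, on the 8 arrays. Points are arrays, black bars are the geometric means of the 2 arrays of a group, OuJ stands for HeOuJ, and the dotted line is the floor of 69.6. In 15 of the 17 panels the 4 HeOuJ points lie all above or all below the 4 HeJ points; Igha and the probe set 93583_s_at of Ighm are the exceptions.

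Ppp1r21, which encodes an endosomal protein that can bind protein phosphatase 1, gave the smallest p of the comparison. Its intensities were 6784 and 6373 in HeJ air, 6199 and 5709.7 in HeJ ozone, 2335 and 2466 in HeOuJ air, and 2203 and 1990.5 in HeOuJ ozone. The lowest HeJ array was above the highest HeOuJ array by more than 2-fold, and within a substrain the arrays spanned a narrow range. The log2 fold change was -1.48 (SE 0.09), or 2.79-fold lower in HeOuJ, with an adjusted p of 0.000757 in limma. It was -1.45 (SE 0.12) in air and -1.51 (SE 0.12) in ozone, and it passed in each exposure on its own. Ppp1r21 was the only one of the 17 to pass in every fit that left out 1 array, with adjusted p-values of 0.0201 to 0.0425. The difference with the actin ratio in the model was -1.62 (SE 0.42), and its adjusted p was 1.

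Skap2 and Cystm1 were also lower in HeOuJ in both exposures. Skap2, which encodes an adaptor of Src kinases that acts in leukocyte adhesion, read 8109.8 and 7046 in HeJ air, 5937 and 5360 in HeJ ozone, 2917 and 2638 in HeOuJ air, and 3518 and 2339 in HeOuJ ozone. All HeOuJ arrays lay below all HeJ arrays, and the log2 fold change was -1.21 (SE 0.14, adjusted p = 0.0152). Cystm1, which encodes a small membrane protein with a cysteine-rich end, read 4423 and 3186 in HeJ air, 3703 and 3692 in HeJ ozone, 1451 and 1052 in HeOuJ air, and 1718 and 1512 in HeOuJ ozone. Its 4 HeJ arrays all lay above its 4 HeOuJ arrays, for a log2 fold change of -1.40 (SE 0.14, adjusted p = 0.0112). The probe set 103842_at, which has no gene in the annotation, showed the same form, with 2238 to 2659.9 in HeJ, 1040.1 to 1270 in HeOuJ and a log2 fold change of -1.07 (SE 0.10, adjusted p = 0.00771). In air and in ozone the differences were -1.45 and -0.98 for Skap2, -1.60 and -1.20 for Cystm1, and -0.96 and -1.19 for 103842_at.

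Sbds, Fabp1 and 2 unnamed probe sets were higher in HeOuJ in both exposures. Sbds, a factor that helps release the large ribosomal subunit for translation, read 2622 and 2681 in HeJ air, 2510 and 2458 in HeJ ozone, 5117 and 3864 in HeOuJ air, and 4453 and 4160.4 in HeOuJ ozone. The HeJ arrays were tightly grouped and all lay below the HeOuJ arrays, for a log2 fold change of 0.77 (SE 0.11, adjusted p = 0.0407), with 0.75 in air and 0.79 in ozone. Fabp1, the fatty acid binding protein of liver and gut, read 227 and 204 in HeJ air, 167 and 136 in HeJ ozone, 762 and 551 in HeOuJ air, and 622 and 504 in HeOuJ ozone. It was 3.34-fold higher in HeOuJ, a log2 fold change of 1.74 (SE 0.23, adjusted p = 0.0322), with 1.59 in air and 1.89 in ozone. A further probe set of Fabp1 gave -0.18 (SE 0.30) and did not pass (adjusted p = 0.848), so its probe sets disagreed. Probe set 97519_at lay at 2879.6 to 3722 in HeJ and 5090 to 6931 in HeOuJ, a log2 fold change of 0.94 (SE 0.10, adjusted p = 0.0148). Probe set 161815_f_at lay at 25.5 to 80.4 in HeJ, below the floor on 3 of 4 arrays, and at 288 to 551 in HeOuJ. Its fold is a lower bound set by the floor, at least 5.11-fold higher in HeOuJ (adjusted p = 0.0117). It met the filter only through its HeOuJ arrays, and both HeJ air values were set to the floor and had no spread. Its p is therefore given as description and not as support for a difference.

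**Figure D2:**
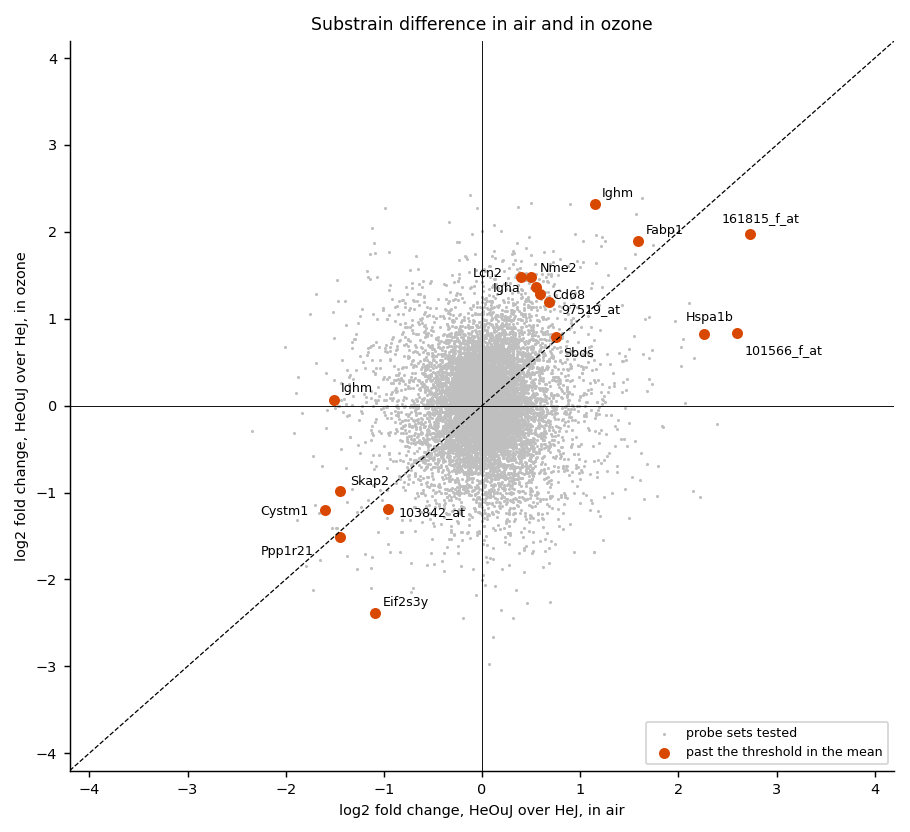
Log2 fold change of HeOuJ over HeJ in air (horizontal) and in ozone (vertical) for the 10953 probe sets tested (grey) and the 17 that passed in the mean over exposures (orange, labelled by gene or probe set). The dashed line marks equal differences; Ppp1r21 (-1.45 and -1.51) and Sbds (0.75 and 0.79) lie on it, whereas Hspa1b lies to its right and Eif2s3y below it.

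Other probe sets that passed differed more in one exposure than in the other. The air and ozone differences had the same sign for 16 of the 17, the difference was larger in ozone for 11 and larger in air for 6, and for 10 the interaction had an unadjusted p under 0.05. In limma's test of the interaction, the ozone difference minus the air difference, 0 probe sets (0%) passed, while 1252 (11.4%) had an unadjusted p under 0.05 and the smallest adjusted p was 0.0509. Unequal differences are therefore given below as values, and none of them was shown to depend on exposure.

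Among named genes that passed in the mean, Hspa1b showed the largest difference in air. It encodes an inducible Hsp70 chaperone, which holds unfolded proteins and is switched on by heat, oxidants and other protein damage. Its intensities were 435 and 439 in HeJ air, 399 and 466 in HeJ ozone, 2249 and 1941 in HeOuJ air, and 805 and 724 in HeOuJ ozone. The 4 HeJ arrays were flat, both HeOuJ air arrays were more than 4 times as high, and the HeOuJ ozone arrays lay between. The log2 fold change was 1.54 (SE 0.14, adjusted p = 0.00731) in the mean, 2.26 (SE 0.19) in air and 0.83 (SE 0.19) in ozone, and the interaction of -1.43 (SE 0.27) had an adjusted p of 0.157. Hspa1a, which encodes a nearly identical protein, read 316 and 472 in HeJ air, 597 and 462 in HeJ ozone, 1961 and 2095 in HeOuJ air, and 424 and 485 in HeOuJ ozone. Only its HeOuJ air arrays stood apart: the difference was 2.39 (SE 0.26) in air (adjusted p = 0.0249) and -0.21 (SE 0.26) in ozone, and the mean of 1.09 (SE 0.18) did not pass (adjusted p = 0.102). The probe sets of such close copies may share signal, so the values of the pair are uncertain as to which copy they read.

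Both genes start from nearly the same promoter, which is shown because the pair moved together in air. The 250 bases before each start, on chromosome 17 of GRCm38.p6 and on the minus strand, are from RefSeq. They differ at 3 positions. Capitals mark GAANNTTC, the paired GAA and TTC units that heat shock factor binds; these letters are their own reverse complement, so both strands were searched at once.
Hspa1a, chr17:34972157-34972406: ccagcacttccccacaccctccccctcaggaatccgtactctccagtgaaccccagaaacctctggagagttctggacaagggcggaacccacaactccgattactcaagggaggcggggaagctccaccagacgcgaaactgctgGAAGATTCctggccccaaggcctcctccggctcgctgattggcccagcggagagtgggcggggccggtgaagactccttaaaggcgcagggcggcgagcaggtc
Hspa1b, chr17:34959239-34959488: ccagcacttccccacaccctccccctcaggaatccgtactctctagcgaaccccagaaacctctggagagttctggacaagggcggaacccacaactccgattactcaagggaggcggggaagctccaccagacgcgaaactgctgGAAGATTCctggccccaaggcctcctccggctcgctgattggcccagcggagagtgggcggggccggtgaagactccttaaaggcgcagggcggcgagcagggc
Each window held 1 match, 104 bases before the start. The motif was present in 2199 of 32851 such windows (6.69%) and in 9 of 32 windows of listed chaperone genes, a description of the letters and not of binding.

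Chaperones as a list leaned towards HeOuJ. Of 35 heat shock and chaperone genes tested, 30 had a positive log2 fold change and 5 a negative one in the mean, with a median of 0.14, against 51.2% positive and a median of 0.01 over all 7629 genes tested. Hspa1b was the 1 member that passed. In air 30 of the 35 were positive with a median of 0.33, and in ozone 20 of 35 with a median of 0.05. Further members named here were chosen after their values were seen, and none of them passed. Hsph1, a nucleotide exchange partner of Hsp70, gave 1.02 in air and 0.38 in ozone, and Dnajb1, a partner that hands substrates to Hsp70, gave 0.72 and 0.57. Hsp90aa1, the inducible Hsp90, gave 0.49 in air and -0.76 in ozone, a mean of -0.13, and its further probe set had a mean of 0.11. Among mitochondrial members, Hspe1 lay higher in HeOuJ on every array (0.42) and Hspa9 lower (-0.36). With the actin ratio in the model 18 of the 35 were positive, with a median of 0.10.

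**Figure D3:**
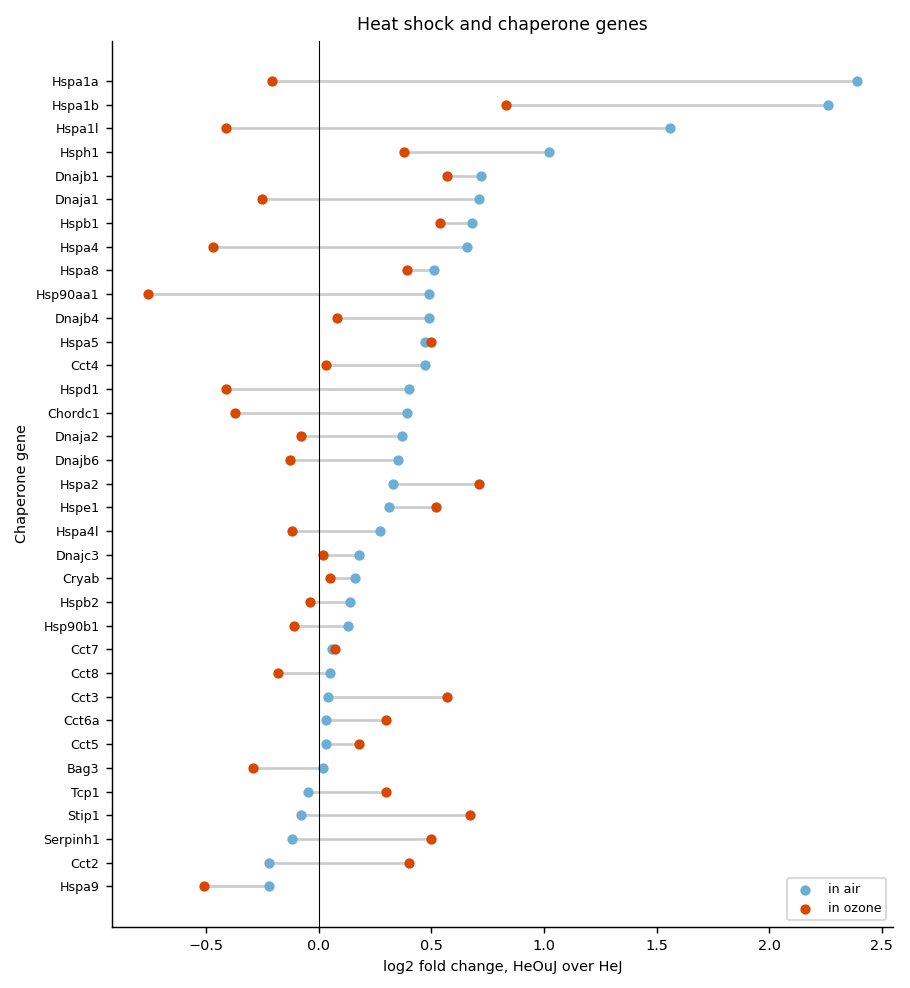
Log2 fold change of HeOuJ over HeJ (horizontal) in air (blue) and in ozone (orange) for the 35 chaperone genes tested, ordered by the value in air. In air 30 lie to the right of 0; the pair Hspa1a and Hspa1b has the largest values in air (2.39 and 2.26) and lower ones in ozone (-0.21 and 0.83).

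Cd68 and Lcn2, genes of phagocytes and of host defence, were higher in HeOuJ. Cd68, a lysosomal glycoprotein of macrophages, read 1104 and 1049 in HeJ air, 965 and 806 in HeJ ozone, 1481 and 1773 in HeOuJ air, and 2405 and 1932 in HeOuJ ozone. All HeOuJ arrays lay above all HeJ arrays, with a log2 fold change of 0.94 (SE 0.12, adjusted p = 0.0322), 0.59 in air and 1.29 in ozone. Lcn2, which encodes a lipocalin that binds bacterial siderophores and is made by neutrophils and stimulated epithelium, read 1296 and 979.9 in HeJ air, 899 and 918 in HeJ ozone, 1405 and 1571 in HeOuJ air, and 2695 and 2387 in HeOuJ ozone. Its log2 fold change was 0.94 (SE 0.12, adjusted p = 0.0304), with 0.40 in air and 1.48 in ozone, while a further probe set, 161684_r_at, gave -0.01. Adding the actin ratio to the model put Lcn2 at 0.05 (SE 0.47) and Cd68 at 0.88 (SE 0.59).

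Subunits of the phagocyte oxidase and of leukocyte adhesion, chosen after their values were seen, had the same direction but did not pass in the mean. In ozone Itgb2 (1.32, adjusted p = 0.0479) and the oxidase subunit Cyba (0.93, adjusted p = 0.0483) passed. Ncf1, the p47phox subunit that assembles the oxidase, read 162 and 57.5 in HeJ air, 246 and 136 in HeJ ozone, 439 and 381 in HeOuJ air, and 816 and 665 in HeOuJ ozone. No HeOuJ array overlapped a HeJ array, and the differences were 1.94 in air and 2.01 in ozone, with an adjusted p of 0.102 for the mean of 1.98 (SE 0.34). Cybb, the catalytic oxidase subunit, ranged over 236 to 463 in HeJ and 502 to 733 in HeOuJ, a log2 fold change of 0.96 (SE 0.27, adjusted p = 0.207). Itgb2, the shared chain of the leukocyte integrins, ranged over 490.3 to 878 and 1122 to 1584, with 0.96 (SE 0.16, adjusted p = 0.102). With the actin ratio in the model, Ncf1 gave 0.05, Cybb -0.62 (SE 1.16) and Itgb2 -0.12 (SE 0.64). Chil3, which encodes a lectin related to chitinases and secreted by macrophages, read 3060.5 and 2738 in HeJ air, 2062 and 1729.8 in HeJ ozone, 7031 and 4978 in HeOuJ air, and 2719 and 2459 in HeOuJ ozone. It was highest in HeOuJ air and higher in HeOuJ on every array within each exposure (0.74, SE 0.13, adjusted p = 0.102). Over both exposures together the substrains overlapped.

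Of 22 neutrophil and granule markers 16 were positive, with a median of 0.10 and Lcn2 the 1 that passed. Their summed intensity was 16086 to 17139 on HeJ arrays and 17522 to 19331 on HeOuJ arrays, but this gap rested on Lcn2. Without Lcn2 the sums overlapped, at 15168 to 15843 in HeJ and 15603 to 17116 in HeOuJ. Of 31 macrophage markers 17 were positive and 14 negative, with a median of 0.02, and Cd68 was the 1 that passed. Tyrobp, an adaptor of myeloid receptors, passed in ozone (0.81, adjusted p = 0.0483). On HeOuJ arrays 5 of the 31 lay above every HeJ array and 1 below, against 205 above and 173 below of all 7629 genes. Among those that did not pass, and chosen after their values were seen, were the lysosomal protease Ctsd (0.47) and the lectin Lgals3 (0.45), while the lysosomal protein Laptm5 (-0.48) lay below every HeJ array. The summed macrophage markers overlapped in air, at 92438 to 103755 in HeJ and 96070 to 107637 in HeOuJ. In ozone they lay apart, at 82915 to 91392 in HeJ and 108464 to 111920 in HeOuJ, also without Cd68 (82108 to 90428 and 106532 to 109515). The part of phagocyte number in the values of Cd68, Lcn2 and the oxidase genes was not tested. Marco, a scavenger receptor of alveolar macrophages, was too dim to be tested.

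**Figure D4:**
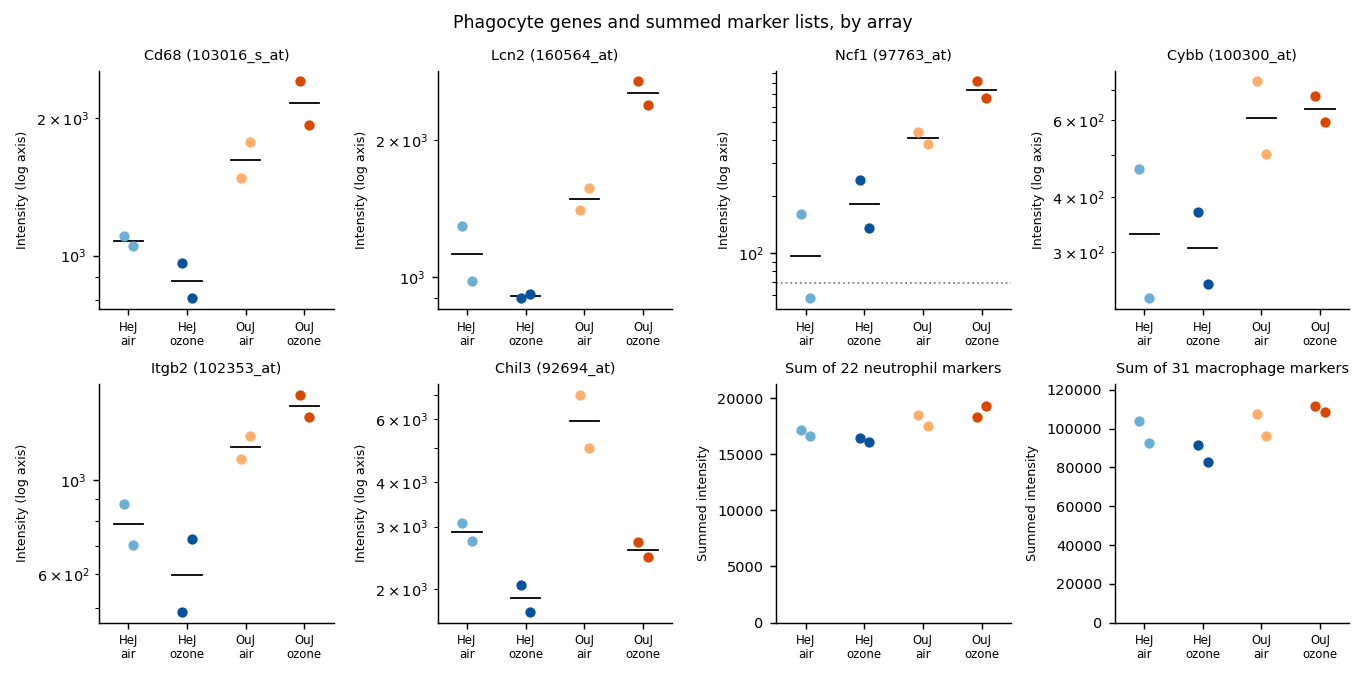
Intensity on each array of 6 phagocyte genes (vertical log axes) and the summed intensity of 22 neutrophil and 31 macrophage markers (vertical axes from 0); points are arrays, black bars are geometric means of 2 arrays, OuJ stands for HeOuJ, and the dotted line is the floor. For Cd68, Lcn2, Ncf1, Cybb and Itgb2 every HeOuJ point lies above every HeJ point. For Chil3 they overlap only over both exposures together, and for the macrophage sum they overlap in air. The neutrophil sum includes Lcn2. Without it those points overlap over both exposures together (15168 to 15843 in HeJ, 15603 to 17116 in HeOuJ) but not within either exposure.

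In the endotoxin receptor pathway no gene passed in the mean. Of 27 genes of Tlr4 and NF-kB signalling 18 were positive, with a median of 0.11, and 0 passed in the mean in limma. An unadjusted p under 0.05 was seen for 4 of them, 2 in each direction (14.8%), against 13.6% of all genes and 13% of all probe sets. Tnf, the first cytokine of the pathway, read 63.8 and 55.9 in HeJ air, 51.3 and 57.1 in HeJ ozone, 103 and 73.4 in HeOuJ air, and 231 and 247 in HeOuJ ozone. Its HeJ arrays were all below the floor, so their spread was not measured, and its HeOuJ arrays all above, so the fold of 2.07 is a lower bound (at least 2.07-fold higher, adjusted p = 0.12). In ozone it was at least 3.43-fold higher, with an adjusted p of 0.0479. Tnf entered the test through its HeOuJ arrays alone, so its p-values are given as description and not as support for a difference. Icam1, an adhesion molecule of activated endothelium and epithelium, gave 0.37 in the mean (adjusted p = 0.198). Cd14, which hands endotoxin to the receptor, was close in both substrains, with 2480.2 to 2714 in HeJ, 2284 to 3696 in HeOuJ and a log2 fold change of 0.11 (SE 0.11). The mean log2 fold changes of Il6, Cxcl2 and Nos2 were 0.34 (SE 0.23), -0.02 (SE 0.33) and 0.13 (SE 0.46), and Il6 lay at the floor on every HeJ array.

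Antigen presentation, interferon and chemokine genes were mixed. Of 13 MHC class II genes 5 were positive and 8 negative, and H2-Eb1, a class II beta chain, was lower in HeOuJ air (2500.3 and 2088 against 5116 and 4569.7 in HeJ air) and close in ozone (2926 and 3478 against 3643 and 3446), with a mean of -0.62 (SE 0.10, adjusted p = 0.102). H2-Ea gave -0.04 (SE 0.28). Ifi30, a thiol reductase of antigen processing, gave 0.68 (SE 0.18, adjusted p = 0.189). Of 31 interferon response genes 13 were positive and 18 negative. Irf8, a transcription factor of macrophages and dendritic cells, was lower on every HeOuJ array, at 951 to 1404 against 1504 to 2054, with -0.61 in air and -0.63 in ozone and an adjusted p of 0.107. Among 33 chemokine genes 19 were positive. The receptor Cxcr4 (-0.62, SE 0.12, adjusted p = 0.12) and its ligand Cxcl12 (-0.49, SE 0.11, adjusted p = 0.13) were both lower on every HeOuJ array, by nearly the same amount in air (-0.58 and -0.49) and in ozone (-0.66 and -0.49). Further probe sets of Cxcl12 gave 0.32 and -0.32 in the mean. In limma 0 members of these 3 lists passed in the mean, in air or in ozone. In the mean 4 (30.8%), 6 (19.4%) and 8 (24.2%) had an unadjusted p under 0.05, against 13.6% of all genes.

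Immunoglobulin probe sets disagreed among themselves. Probe set 99420_at of Ighm was higher in HeOuJ, reading 1610.3 and 1011 in HeJ air, 545 and 639 in HeJ ozone, 3244 and 2472 in HeOuJ air, and 2844 and 3062 in HeOuJ ozone, with a log2 fold change of 1.74 (SE 0.17, adjusted p = 0.00771). Its value was 0.29 (SE 0.56) with the actin ratio in the model. Probe set 93583_s_at of the same gene was lower, reading 7235 and 7226 in HeJ air, 3609 and 3482 in HeJ ozone, 2502 and 2562 in HeOuJ air, and 3434 and 4045 in HeOuJ ozone, with -0.72 (SE 0.09, adjusted p = 0.0265). The HeJ air arrays were the high ones there, and the difference was -1.51 in air and 0.07 in ozone. Averaged over the 13 probe sets of Ighm, the difference was 0.43 (SE 0.20), opposite in sign to that of 93583_s_at. Igha, the heavy chain of IgA, read 3646 and 3868 in HeJ air, 1804 and 1516 in HeJ ozone, 5507 and 5478 in HeOuJ air, and 3614 and 5056 in HeOuJ ozone. It was higher in HeOuJ within each exposure, with 0.96 (SE 0.12, adjusted p = 0.0304), while its other probe sets gave -0.01 and 0.19. Over 32 B and plasma cell markers, 12 were positive and 20 negative, with a median of -0.08. Their summed intensity was 28270 to 43666 in HeJ and 35024 to 37639 in HeOuJ. Antibody gene segments are closely related, so reads of one chain by another's probe set cannot be told apart.

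Nme2 and Eif2s3y also passed with larger differences in ozone. Nme2, a nucleoside diphosphate kinase, read 2554 and 2168 in HeJ air, 2392 and 2208 in HeJ ozone, 3742 and 2950.2 in HeOuJ air, and 6729.7 and 6136 in HeOuJ ozone. The HeOuJ ozone arrays were far above the rest, for 0.50 in air, 1.48 in ozone and 0.99 (SE 0.11, adjusted p = 0.0148) in the mean. Eif2s3y, the Y-linked copy of a subunit of translation initiation factor eIF2, read 900.1 and 1076 in HeJ air, 1337 and 1183 in HeJ ozone, 467 and 455 in HeOuJ air, and 233 and 246 in HeOuJ ozone. It was lower on every HeOuJ array, with -1.09 in air, -2.39 in ozone and -1.74 (SE 0.15, adjusted p = 0.00731) in the mean. Other sex-linked genes were examined after this was seen. Uty, a Y-linked histone demethylase, read 249 and 279 in HeJ air, 346 and 367 in HeJ ozone, 151 and 212 in HeOuJ air, and 142 and 22 in HeOuJ ozone, and was lower on every HeOuJ array without passing (-1.20, SE 0.30, adjusted p = 0.166). Kdm5d, also on the Y chromosome, was dim on most arrays (24.6 to 125 in HeJ and 13.7 to 51.1 in HeOuJ). The X-linked partner Eif2s3x gave -0.11 (SE 0.09). Xist, the RNA made from the inactive X chromosome of females, ran from 36.8 to 100.1 in HeJ and from 16.3 to 159.6 in HeOuJ, with 0.29 (SE 0.20, adjusted p = 0.609). The labels give no sex, and its part in the value of Eif2s3y was not tested. Probe set 101566_f_at lay below the floor on all HeJ arrays and at 437 and 409.8 in HeOuJ air and 111 and 140.4 in HeOuJ ozone, at least 3.3-fold higher in the mean (adjusted p = 0.0304). It entered the test through its HeOuJ arrays alone, and its HeJ values, all set to the floor, had no spread of their own. Its p is therefore given as description and not as support for a difference.

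Glucocorticoid and ER stress genes leaned towards HeOuJ in both exposures. Of 25 glucocorticoid-responsive genes 21 were positive in the mean, with medians of 0.21 in air and 0.35 in ozone, and 15 (60%) were positive in both exposures, against 26.4% of all genes. Lcn2 was the 1 that passed in the mean. In ozone the repressor Bcl6 also passed, lower in HeOuJ (-1.27, adjusted p = 0.0454). Among members chosen after their values were seen, Hsd11b1, which regenerates active glucocorticoid, lay at 4620.3 to 5350.4 in HeJ and 6681 to 8971 in HeOuJ, a log2 fold change of 0.56 (SE 0.11, adjusted p = 0.12). Fkbp5, a cochaperone of the glucocorticoid receptor, gave 0.70 (SE 0.21, adjusted p = 0.213), and the clock gene Per1, which glucocorticoid also induces, gave 0.52 (SE 0.22, adjusted p = 0.371). Allowing for the actin ratio, 16 of the 25 were positive, with a median of 0.22. Of 24 ER stress genes 20 were positive, with medians of 0.16 in air and 0.23 in ozone, and 0 passed in the mean in limma (unadjusted p under 0.05 for 6, or 25%, against 13.6% of all genes). Hspa5, the Hsp70 of the endoplasmic reticulum, gave 0.47 in air and 0.50 in ozone, and Sec61b, part of its protein channel, gave 0.23 and 1.03, the latter past the threshold (adjusted p = 0.0494). Allowing for the same ratio, 11 of the 24 were positive and the median was -0.04.

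Mitochondrial and muscle genes leaned towards HeOuJ in ozone. Of 58 genes of oxidative phosphorylation 45 were positive in the mean, with a median of 0.00 in air and 0.21 in ozone, and 0 passed in the mean in limma (unadjusted p under 0.05 for 11, or 19%, against 13.6% of all genes). In ozone a second probe set of Ndufb2, 95131_f_at, passed (0.72, adjusted p = 0.0487). In the mean Ndufb2 of complex I gave 0.39 and Sdhb of complex II 0.45. Of 49 cardiac and skeletal muscle markers 37 were positive, with a median of 0.02 in air and 0.39 in ozone, and 0 passed in the mean in limma (unadjusted p under 0.05 for 6, or 12.2%). Myh6, the cardiac alpha myosin, gave 0.51 in the mean and passed in ozone (0.84, adjusted p = 0.0494), whereas Myl2, the ventricular light chain, was above the floor only on the HeJ air arrays (191 and 194). With the actin ratio in the model, which is highest on the HeOuJ ozone arrays, 28 of the 58 and 23 of the 49 were positive. These counts cannot separate the ratio from the substrain, and the part of the ratio was not tested. Of 33 proteasome genes 22 were positive, and Psmd14, a deubiquitinating subunit of the lid, gave 0.53 (SE 0.12, adjusted p = 0.13). Of 19 MHC class I and peptide loading genes 12 were positive, with H2-Q4 at 0.42 and Psmb8, an immunoproteasome subunit, at 0.38.

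**Figure D5:**
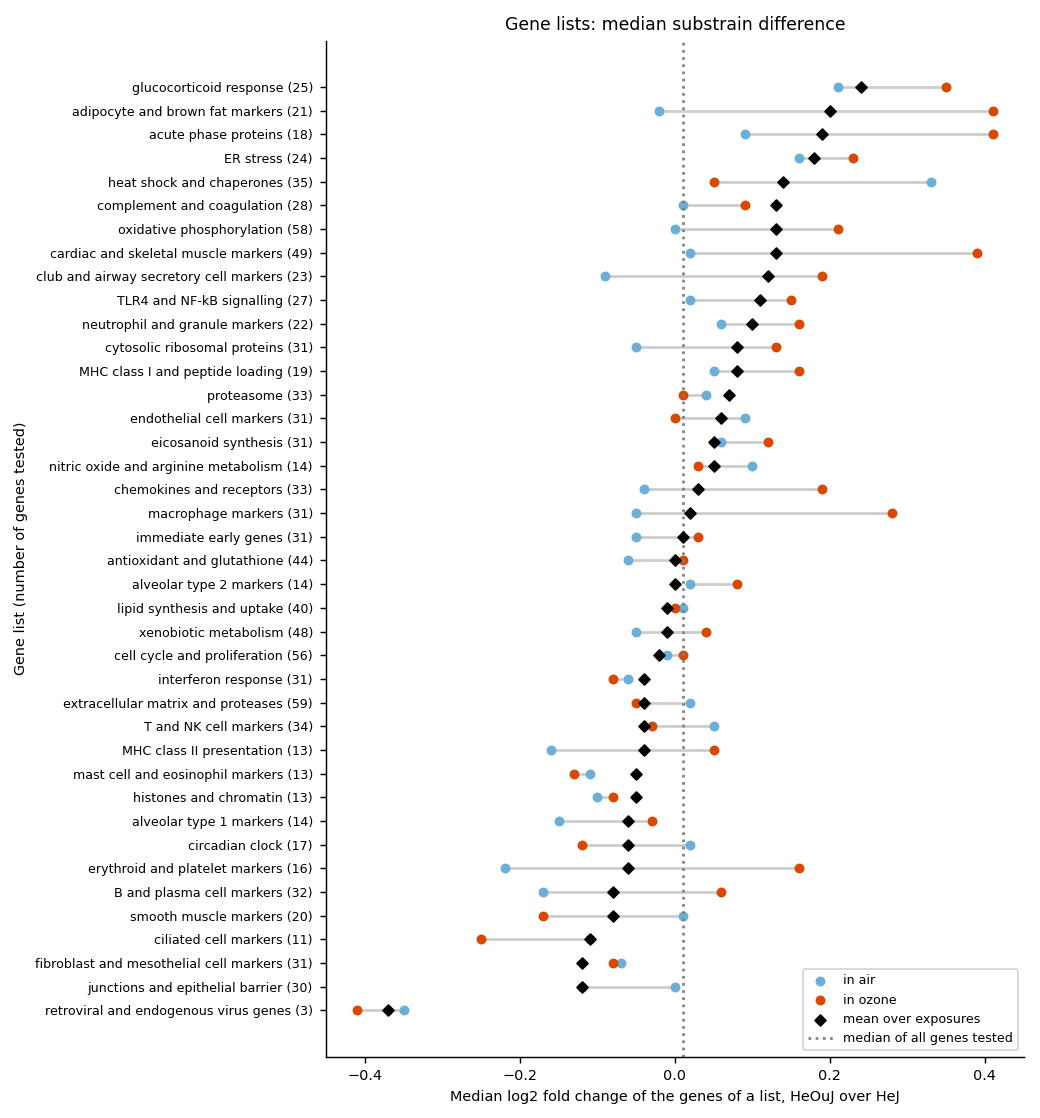
Median log2 fold change of HeOuJ over HeJ (horizontal) for the genes of each of the 40 lists, in air (blue), in ozone (orange) and in the mean (black diamond); the number of genes tested stands beside each list, and the dotted line is the median of all genes (0.01). The glucocorticoid list has the highest mean (0.24); the chaperone list is higher in air (0.33) than in ozone (0.05), and the muscle list higher in ozone (0.39) than in air (0.02).

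Among epithelial, vascular, matrix and smooth muscle genes, only Lcn2, which is also on the alveolar type 2 list, passed in the mean over exposures. In ozone Tjp1, Krt18, F3 and both probe sets of Csrp1 passed as well. An unadjusted p under 0.05 was reached by 5 junction (16.7%), 9 endothelial (29%), 11 matrix (18.6%), 8 fibroblast and mesothelial (25.8%) and 4 smooth muscle genes (20%), against 13.6% of all genes. Epithelial cell lists gave 21.4% (alveolar type 2), 17.4% (club and airway secretory), 9.09% (ciliated) and 7.14% (alveolar type 1). Of 30 junction and barrier genes 12 were positive and 18 negative, with a median of -0.12. Tjp1, the tight junction scaffold ZO-1, was close in air (0.18) and lower in HeOuJ ozone (-1.18, adjusted p = 0.0454), while its further probe set gave 0.62 in the mean. Dsp, which anchors desmosomes, lay lower on every HeOuJ array (2011 to 2541 against 2685 to 2932, with -0.28, SE 0.09, adjusted p = 0.253). Scgb1a1, the club cell secretoglobin, gave 0.12 (SE 0.20), which turned to -0.15 under quantile normalisation. Krt18, a keratin of simple epithelium, gave -0.38 in air and 1.11 in ozone, which passed there (adjusted p = 0.0454). Of 31 endothelial markers 16 were positive. Vwf, the clotting factor carrier of endothelium, was lower on every HeOuJ array (-0.43, SE 0.10, adjusted p = 0.141), and Icam2, an endothelial adhesion molecule, was higher on every one (0.36, SE 0.09, adjusted p = 0.156). Tissue factor F3, which starts clotting, gave 0.51 (SE 0.11, adjusted p = 0.135). In the matrix list, 26 of 59 were positive; the protease inhibitor Timp1 (0.47, SE 0.11, adjusted p = 0.145) and fibronectin Fn1 (0.39, SE 0.10, adjusted p = 0.151) were each higher on every HeOuJ array. Dpep1, a membrane dipeptidase, and Cpe, a peptide-processing enzyme, led the list of 31 fibroblast and mesothelial markers, at 0.58 (SE 0.10, adjusted p = 0.102) and -0.59 (SE 0.14, adjusted p = 0.142). Among 20 smooth muscle markers 7 were positive; Csrp1, a muscle LIM protein, gave 0.52 (SE 0.09, adjusted p = 0.104) with a further probe set at 0.58, and Mylk, the myosin light chain kinase, gave -0.44 (SE 0.10, adjusted p = 0.141).

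In further lists the share of positive members ran from 23.1% to 72.2%, against 51.2% of all genes. Of 44 antioxidant and glutathione genes 22 were positive; Mgst3, a microsomal glutathione transferase, gave 0.52 (SE 0.11, adjusted p = 0.122), and Sod3, the extracellular superoxide dismutase, read 6604 and 6203 in HeJ air, 5711 and 6312 in HeJ ozone, 3618 and 8576 in HeOuJ air, and 2281 and 1855 in HeOuJ ozone. The HeOuJ air arrays of Sod3 lay on either side of all HeJ arrays, and the mean was -0.87 (SE 0.23, adjusted p = 0.188). Without HeOuJ air 1a it was -0.56, and without HeOuJ air 1b it was -1.18 and passed (adjusted p = 0.0403). The metal-binding Mt1 and Mt2 gave 0.15 (SE 0.11) and 0.21 (SE 0.10). Of 18 acute phase genes 13 were positive with a median of 0.19, and Lcn2 was the 1 that passed. Saa3, an acute phase amyloid, read 551 and 280.1 in HeJ air, 979 and 1086 in HeJ ozone, 397 and 558 in HeOuJ air, and 2562 and 2167 in HeOuJ ozone, with 0.26 in air, 1.19 in ozone and 0.73 (SE 0.23, adjusted p = 0.236) in the mean. The 56 cell cycle genes divided into 27 positive and 29 negative, with a median of -0.02. Of 34 T and NK cell markers 15 were positive, with the chemokine Ccl5 at 0.64 (SE 0.15, adjusted p = 0.151) and the adhesion receptor Cd2 at 0.96 (SE 0.28, adjusted p = 0.213). Mast cell Kit gave -0.35 (SE 0.10, adjusted p = 0.213). Nr4a1, an immediate early nuclear receptor, gave 0.47 (SE 0.10, adjusted p = 0.123), and Rora, a nuclear receptor of the clock, gave 0.72 (SE 0.18, adjusted p = 0.166). In eicosanoid synthesis 18 of 31 were positive, with Hpgd, which inactivates prostaglandins, at 0.31 and Ltc4s, the leukotriene C4 synthase, at 0.38. Among further lists, 23 of 48 xenobiotic genes, 20 of 40 lipid genes, 20 of 31 cytosolic ribosomal genes, 15 of 21 adipocyte markers, 3 of 11 ciliated cell markers and 3 of 13 histone and chromatin genes were positive. Fabp1, on the lipid list, was the only member of these 6 lists that passed.

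Over all probe sets the substrain differences in air and in ozone were nearly uncorrelated. Tested alone, air gave 5 probe sets (0.0456%) and ozone 107 (0.977%; 38 higher and 69 lower). Median centring of the arrays moved the split in ozone to 19 higher and 68 lower. The 5 that passed in the air contrast were 93583_s_at of Ighm, Ppp1r21, Hspa1b, Hspa1a and 101566_f_at. The air and ozone differences come from separate arrays, and the median SE of each was 0.30. Over all 10953 probe sets their Pearson correlation was 0.0565 and their Spearman correlation 0.0468, given as a description across probe sets that are not independent. Their signs matched for 50% of the probe sets. Of the 20 with the smallest p in the 4 air arrays alone, 13 had the same sign in ozone, and of the 20 with the smallest p in the 4 ozone arrays alone, 9 had the same sign in air. The match was uneven by direction, which was not tested: of the 100 of smallest p in ozone, 22 of the 26 higher in HeOuJ were also higher in air, whereas 29 of the 74 lower in HeOuJ were lower in air. Wnk1 and Eif4a2 had, with 93583_s_at, the smallest interaction p. Wnk1, a kinase that controls salt transport, read 5572 and 6536 in HeJ air, 7108 and 6856 in HeJ ozone, 7494 and 7068 in HeOuJ air, and 2107 and 2555 in HeOuJ ozone. It was slightly higher in HeOuJ in air (0.27, SE 0.14) and lower in ozone (-1.59, SE 0.14). Its mean of -0.66 had the sign of its further probe sets (-1.26 and -0.48). Eif4a2, an RNA helicase of translation initiation, gave 0.59 (SE 0.13) in air and -1.07 (SE 0.13) in ozone.

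The count of 17 moved as single arrays were left out. Without HeOuJ air 1b it was 15, of which 10 were among the 17, with 6 higher and 9 lower. It was 2 without HeJ air 1a, and 1 (Ppp1r21) without any one of the other 6. Without both HeOuJ ozone arrays, an alternative chosen after their control ratios were seen, only the air difference remained and 0 passed in limma, with a smallest adjusted p of 0.0523. With the actin ratio in the model 0 passed (296 had an unadjusted p under 0.05), all 17 kept their direction, and 5 were more than 2 SE from 0. The difference was then 0.60 (SE 0.51) for Nme2, -0.47 (SE 0.43) for 103842_at, -1.09 (SE 0.67) for Eif2s3y and -2.34 (SE 0.58) for Cystm1, each moved by over 1.5 times, as were those of 99420_at and Lcn2.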

How the data were processed

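The deposited intensity values are linear, with 1 value of each probe set for every array, and had been scaled by the authors, since the mean of each array after trimming 2% was between 800.39 and 800.41. The software, scanner and genome build are not given in the sources used here. From these values, 66 control probe sets were set aside, values were floored at their 20th percentile over all arrays (69.6, or 6.12 on the log2 scale), and the 10953 probe sets above it on at least 2 of 8 arrays were tested, leaving out 1469. All 8 arrays entered 1 limma model (limma 3.58.1, R 4.3.3) of 4 group means with a variance trend, which had 4 residual and 4.54 prior degrees of freedom. Contrasts were HeOuJ minus HeJ in the mean over exposures, in air, in ozone, and the ozone minus the air difference. P-values are two-sided and adjusted by Benjamini-Hochberg with a threshold of 0.05. Only the spread among the 8 arrays enters them, and it may be technical; the small number of arrays limits precision. Genes came from an annotation of 2016 in which 10833 probe sets had 1 gene, 396 had several and 1193 had none. Of these, 7629 genes were tested, and a list uses the probe set of highest mean log2 intensity for each gene.

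Named genes were drawn from those that passed with arrays apart and 1 symbol, up to 15 in each direction. They were also drawn from each of 40 lists, up to 4 members that passed, or the 2 of smallest p. To these came 14 genes followed throughout and the 3 genes of smallest interaction p. Not every list member that met this rule is named in the text. Genes outside this rule are said in the text to have been chosen after their values were seen; these also include Hsp90aa1, the sex-linked genes, and Tyrobp, Cyba and Bcl6, which are named because they passed in ozone. No pair of genes that passed had 3 or fewer genes between them on a chromosome. The members and lists were chosen with earlier results of these data known. The model was tested on simulated data. Promoter sequences are RefSeq's for GRCm38.p6; the files name no build. Alternatives covered scaling, floor, filter, variance model, weights, the actin ratio, replicate letters, arrays and probe sets. Figures used Python 3.11.15, matplotlib 3.10.9 and pandas 2.3.3.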

Additional observations from a re-analysis of the deposited data

Results flagged for a closer look

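For 5 of the named genes, every HeOuJ array lay on one side of both HeJ arrays in air and on the other side in ozone. The same was so for 7.2% of the probe sets tested, and 8.25% lay on the same side in both exposures. In limma's interaction test, the ozone difference minus the air difference, none of the 5 passed an adjusted p of 0.05, so the opposite directions were not shown to be more than spread. Wnk1 gave an interaction of -1.86 (SE 0.20) and an adjusted p of 0.0509. Eif4a2 read 7163 and 6231 in HeJ air, 8210.1 and 8131 in HeJ ozone, 10503 and 9586 in HeOuJ air, and 3751 and 4033 in HeOuJ ozone, with an interaction of -1.66 (SE 0.19) and an adjusted p of 0.0509. The value for Krt18 was 1.49 (SE 0.25), with an adjusted p of 0.156 and intensities of 2505 and 3029 in HeOuJ ozone against 919 and 817 in HeOuJ air. Xist gave 1.30 (SE 0.40) at intensities near the floor, with an adjusted p of 0.291. For Hsp90aa1 it was -1.26 (SE 0.24), with an adjusted p of 0.157, 10417 and 8218 in HeOuJ air and 4314 and 4562 in HeOuJ ozone. Groups of 2 arrays are too small to look for a single array that stands apart.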

How the results depend on the processing

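The 17 probe sets that passed in the mean over exposures kept their direction in every alternative, other than 93583_s_at of Ighm, which turned to 0.43 when the probe sets of a gene were averaged. Their number was 12 to 25 under the alternatives of scaling, floor, filter and array weights. It was 7 without a variance trend, 7 with the probe sets of a gene averaged, 10 in the additive model, 0 with the actin ratio as a covariate and 0 without both HeOuJ ozone arrays, and it ran from 1 to 15 as each array was left out. The count of 5 in air became 8 with median centring, 9 with a pseudocount in place of a floor, 3 with no filter, 8 among the brighter probe sets alone, 3 without a variance trend, 9 with array weights and 3 with the probe sets of a gene averaged. It was 0 with the actin ratio, in the 4 air arrays alone, without both HeOuJ ozone arrays and without any single array (0 to 0). The count of 107 in ozone became 230 with a pseudocount, 11 with no filter, 282 among the brighter probe sets, 13 with array weights and 32 with the probe sets of a gene averaged. It was 0 without a variance trend, with the actin ratio and in the 4 ozone arrays alone, and ran from 0 to 31 as each array was left out, with 0 without any one of the 4 ozone arrays. In the interaction 0 became 3 with quantile normalisation, 3 with a floor at the 10th percentile, 9 with a pseudocount and 9 among the brighter probe sets. The causes were not tested. Quantile normalisation and median centring moved the median difference of all probe sets by less than 0.1.

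The labels number the arrays of each group 1a and 1b without saying what the letters share. Deviations of same-lettered arrays from their group means had correlations of -0.0101 to 0.138, so the letters were not taken as a pairing. With the letter as a replicate block, 29 passed in the mean (the 17 among them), 6 in air, 185 in ozone and 0 in the interaction.

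Of 89 named results, 28 changed sign in at least 1 alternative, and of these only 93583_s_at had passed. Quantile normalisation turned Scgb1a1 to -0.15, and averaging of probe sets turned Tjp1 to 0.06. With the actin ratio as a covariate, Hspe1 became -0.13, Hsp90aa1 0.67, Icam1 -0.02, Saa3 -1.44, Nos2 -2.52, Scgb1a1 -0.34, Mt1 -0.33, Mt2 -0.08, Cybb -0.62, Itgb2 -0.12 and Lgals3 -0.05. Under the same covariate Psmb8 became -0.16, Fn1 -0.17, Tjp1 0.78, Myh6 -0.3, Mgst3 -0.31, Kit 0.35, Hpgd -0.21, Ltc4s -0.15 and Eif2s3x 0.26. Without both HeOuJ ozone arrays, which leaves the air difference, Hsp90aa1 was 0.49, Cd14 -0.06, Scgb1a1 -0.23, Mt1 -0.18, Mt2 -0.15, Tjp1 0.18, Wnk1 0.27, Eif4a2 0.59, Krt18 -0.38, Eif2s3x 0.07 and Xist -0.36. As each array was left out, H2-Ea ran from -0.3 to 0.22, Nos2 from -0.4 to 0.65 and Cxcl2 from -0.31 to 0.27. Low signal limited Tnf, Il6, Kdm5d, Xist, Uty, Ncf1, Myl2, Pter, 161815_f_at and 101566_f_at, which lay at or near the floor on some or all arrays, so their differences are compressed.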

Other observations

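Several named genes that did not pass differed by similar amounts in air and in ozone, with all HeOuJ arrays apart from all HeJ arrays. They were chosen after their values were seen, from the 40 probe sets next in order of p. Cd302, a C-type lectin receptor of myeloid cells, ranged over 356 to 405 in HeJ and 656 to 806 in HeOuJ, with 0.84 in air and 1.00 in ozone (adjusted p = 0.102). Rgcc, a cell cycle regulator induced by complement, was higher in HeOuJ by 0.48 in air and 0.74 in ozone (adjusted p = 0.0958). Pcp4l1, a small calmodulin-binding protein, was lower in HeOuJ, at -0.63 in air and -0.86 in ozone (adjusted p = 0.0851). A further probe set of Pcp4l1 gave -0.49 in the mean. Pter lay at 165 to 301 in HeJ and 62.8 to 112 in HeOuJ. Both HeOuJ air arrays were below the floor, so it was at least 3.69-fold lower in HeOuJ in air, with -1.32 in ozone (adjusted p = 0.107 in the mean).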
